A study of Saccharomyces cerevisiae with 4 samples.

Results

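The head is the part of the Mediator complex that docks on RNA polymerase II at a promoter, and its 8 subunit genes were followed here in yeast whose polymerase carries an altered C-terminal domain (CTD). The genes are SRB2 (YHR041C), SRB4 (YER022W), SRB5 (YGR104C), SRB6 (YBR253W), MED6 (YHR058C), MED8 (YBR193C), MED11 (YMR112C) and ROX3 (YBL093C). They were found by their ORF names, a rule in which no measured value enters, and each had 1 probe with a value on every array, so that 8 of the 6210 probes in the table are described. On 4 spotted oligonucleotide arrays, RNA of the 5A mutant, labelled with Cy5, was set directly against RNA of control cells containing the WT CTD, labelled with Cy3. In the 5A mutant, 5 alanines are inserted between the diheptads of the CTD. The mutant was made in strain Z26 by plasmid shuffle, in which cells lose a URA3-linked RPB1 gene and keep the introduced LEU2-linked copy. The control cells had been transformed with the WT CTD, and both strains were grown to log phase in YPD medium at the same optical density. How many rounds of growth the mutant had passed before RNA was taken is not given in the sources used here. Neither the labels nor the methods say whether the 4 RNA replicates came from separate cultures or clones, so the p-values measure the spread between these arrays, which may be technical. The dyes were not swapped, so that a dye effect of a probe and its expression ratio cannot be told apart. Over all probes, Pearson's r between arrays was 0.853 to 0.877 among arrays 1, 3 and 4 and 0.666 to 0.691 between array 2 and the others, so that array 2 stood apart, and the head is therefore also given without it.

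Mediator carries signals from gene-specific activators to RNA polymerase II and helps assemble the initiation complex. Its tail receives activators, its middle and head contact the polymerase, and a separable kinase module carries a cyclin-dependent kinase that can phosphorylate the CTD. The yeast head is closely tied to the CTD by its history, since several SRB genes, among them SRB2, SRB4, SRB5 and SRB6, were first found as suppressors of a shortened CTD. Srb4 is the scaffold of the head and is needed for most polymerase II transcription. Srb2 and Srb5 bind each other in the movable jaw, which the end of Med8 tethers to the rest of the head. Srb6 and Med11 pair with each other, Med6 lies where the head meets the middle, and Rox3 joins the head to the middle as well. Srb2 and Srb5 are dispensable for viability in yeast, whereas Srb4, Srb6, Med6, Med8 and Med11 are essential.

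The 8 head genes did not move in 1 direction. SRB2, SRB6 and SRB5 were higher in the 5A mutant and SRB4, the scaffold gene, was lower, while MED11, ROX3, MED8 and MED6 did not pass the test. Each value is a log2 ratio of 5A over WT, in which 1 stands for a 2-fold higher and -1 for a 2-fold lower level in the mutant. The fit across 6157 probes (limma, Benjamini-Hochberg adjusted p under 0.05) called 4 of the 8, 3 higher and 1 lower. Over all probes fitted it called 40.5%, with 19.8% higher and 20.7% lower, so that the share of head genes called was near that of the array as a whole. The median of the 8 mean ratios was 0.024, beside -0.0054 over all probes. None of the 8 means reached 2-fold, beside 14.4% of all probes. SRB2 was just short of it, and with 1 array left out up to 2 of the 8 passed.

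**Figure D1:**
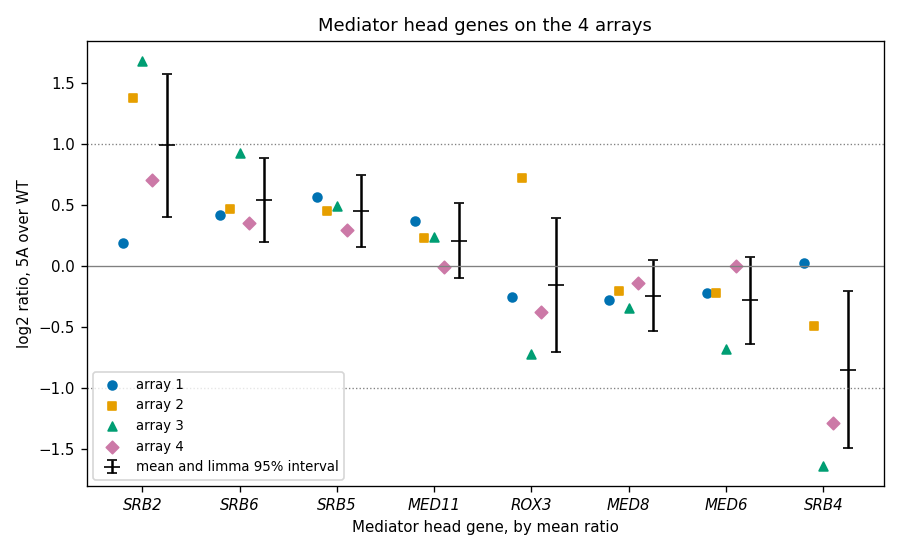
Log2 ratio of 5A over WT (vertical axis) for each of the 8 head genes, ordered by mean. Symbols stand for the 4 arrays, bars for the mean with limma's 95% interval, and dotted lines for 2-fold. SRB2, SRB6 and SRB5 lie above 0 on every array, and SRB4 spans from 0.023 on array 1 to -1.64 on array 3.

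The movable jaw was described first. SRB2 had log2 ratios of 0.19, 1.38, 1.68 and 0.71 on arrays 1 to 4. All were above 0, but the highest was far from the lowest, and arrays 2 and 3 were past 2-fold while arrays 1 and 4 were not. The mean was 0.99 ± 0.67 (SD, n = 4, limma adjusted p = 0.0189, 95% interval 0.40 to 1.57), a 1.98-fold higher level in the mutant. Without array 3 the mean was 0.76 and SRB2 was not called (limma adjusted p = 0.0709), and without array 1 it was 1.26.

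SRB5, which encodes the partner of Srb2, was higher by a smaller and far more even amount. Its log2 ratios were 0.56, 0.45, 0.49 and 0.29 on arrays 1 to 4. The mean was 0.45 ± 0.11 (SD, n = 4, limma adjusted p = 0.0267), or 1.37-fold. The partners were thus both called higher, and the mean difference of SRB2 minus SRB5 was 0.54 ± 0.69 (SD, n = 4), positive on 3 arrays and negative on array 1 (exact two-sided sign-flip permutation test, p = 0.25). The call of SRB5 was lost when array 1, 3 or 4 was omitted (adjusted p in limma of 0.117, 0.0922 and 0.0749), although its mean stayed between 0.41 and 0.50.

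MED8, whose product tethers both of these proteins, gave log2 ratios below 0 on every array, at -0.28, -0.20, -0.35 and -0.14. The mean was -0.24 ± 0.089 (SD, n = 4, limma adjusted p = 0.154, 95% interval -0.53 to 0.05) and did not pass the test. Its 4 values did not overlap with those of SRB2 or SRB5, nor with those of SRB6 or MED11, which lie outside the jaw. This was not particular to MED8, since the values of SRB4 and MED6 also lay below all those of SRB2, SRB5 and SRB6. The share of such pairs among other probes was not computed.

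The scaffold gene SRB4 had the lowest mean of the head. Its log2 ratios were 0.023, -0.49, -1.64 and -1.29 on arrays 1 to 4. Array 1 was close to 0, whereas arrays 3 and 4 were past 2-fold. The mean was -0.85 ± 0.75 (SD, n = 4, limma adjusted p = 0.0439, 95% interval -1.49 to -0.21), or 1.80-fold lower. The call was lost without array 3, at -0.58 (limma adjusted p = 0.154), without array 4, at -0.70 (limma adjusted p = 0.152), and when each chromosome was centered on its median, at -0.79 (limma adjusted p = 0.0564).

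SRB6 and MED11 encode a pair of small subunits that fold together. SRB6 had log2 ratios of 0.42, 0.46, 0.93 and 0.35, above 0 on every array with array 3 the highest. Its mean was 0.54 ± 0.26 (SD, n = 4, limma adjusted p = 0.0251), or 1.45-fold. This call held without array 2, but leaving out array 1, 3 or 4 raised the limma adjusted p to 0.0731, 0.0981 and 0.0632. For MED11 the arrays gave 0.37, 0.23, 0.24 and -0.012, and the mean log2 ratio was 0.21 ± 0.16 (SD, n = 4, limma adjusted p = 0.238, 95% interval -0.10 to 0.51). The values of both genes overlapped.

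MED6 and ROX3 stand at the border with the middle. MED6, a gene needed for activated transcription, had log2 ratios of -0.22, -0.22, -0.68 and 0.00051, with the mean at -0.28 ± 0.28 (SD, n = 4, limma adjusted p = 0.174, 95% interval -0.64 to 0.08). ROX3, first known as a regulator of oxygen-responsive genes, had log2 ratios of -0.26, 0.72, -0.72 and -0.37. Array 2 thus stood on the other side of 0 from arrays 1, 3 and 4. The mean of ROX3 was -0.16 ± 0.62 (SD, n = 4, limma adjusted p = 0.610, 95% interval -0.71 to 0.39), and without array 2 it was -0.45 and called (limma adjusted p = 0.0374).

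In the order of their means the genes ran SRB2, SRB6, SRB5, MED11, ROX3, MED8, MED6 and SRB4. In every pair of neighbors in this order the 4 values overlapped, as genes next to each other in mean tend to. Overlap ignores that both genes were read on the same arrays, so differences per array were also taken. The differences between neighbors and that of SRB2 and SRB5 made 8 comparisons, with exact p between 0.125 and 0.875 and Benjamini-Hochberg adjusted values of at least 0.5. With 4 arrays this test cannot give a p below 0.125. The neighbors were also paired by these same means, which favors small differences, so the p-values cannot show that neighboring genes are alike. The most even step was from SRB5 to MED11, where SRB5 was higher on every array by 0.24 ± 0.048 (SD, n = 4, exact permutation p = 0.125). Over all 28 pairs of head genes, 10 had values that did not overlap. This share was not computed for other probes, so whether the count is particular to the head was not tested.

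Array 3 pulled the head genes furthest apart. The distance between the highest and the lowest log2 ratio of the 8 was 3.32 on array 3, against 0.84 on array 1, 1.87 on array 2 and 1.99 on array 4. SRB2 was the highest and SRB4 the lowest on arrays 2, 3 and 4, whereas on array 1 SRB5 was the highest and MED8 the lowest. The standard deviation over all probes was 0.86, 0.74, 0.97 and 0.89 on arrays 1 to 4, so that array 3 was also the widest array as a whole. The same 4 genes were called after the arrays had been brought to a common spread, with adjusted p between 0.0197 and 0.0390 (limma). Leaving out array 3 left 0 of the 8 called (limma, 3 at an unadjusted p under 0.05), and leaving out array 1, 2 or 4 left 2, 5 or 1. Over all probes, the fit called 1501 without array 3, against 2495 with all 4 arrays. It called 1438, 3120 and 1492 without array 1, 2 or 4.

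The precision of the 8 ratios differed widely. The standard deviation over arrays was larger than that of 94.9% of the probes with 4 values for SRB4, 91.9% for SRB2 and 89.3% for ROX3. At the other end, it was larger than that of only 3.39% for MED8 and 6.95% for SRB5, beside a median standard deviation of 0.30 over these probes. The largest means in the head were therefore also among its least even ones. By mean ratio, SRB2 was above 94.1% and SRB4 above 10.9% of all probes.

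**Figure D2:**
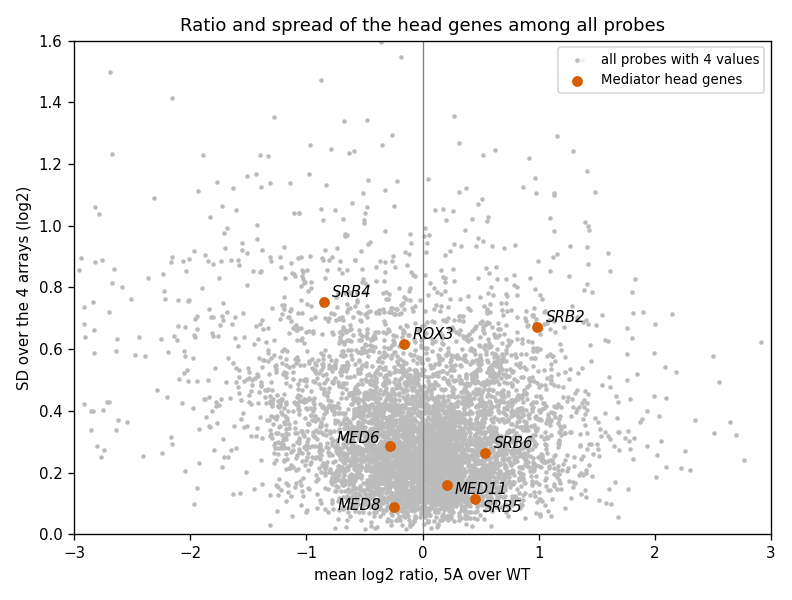
Standard deviation over the 4 arrays (vertical axis) against mean log2 ratio of 5A over WT (horizontal axis) for probes with 4 values (grey), with the 8 head genes in orange. The frame leaves out 38 probes. SRB2, SRB4 and ROX3 lie in the upper part of the cloud and MED8 and SRB5 near its lower edge.

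The other Mediator genes were set beside the head to see how the complex stood as a whole. All 17 were measured, and the fit called 8 of them, 4 higher and 4 lower, beside 40.5% of all probes. The middle, which forms the arm of the core complex, had 4 of 8 called, 2 in each direction. SOH1 was at 0.55 ± 0.13 and RGR1, which encodes the long backbone that links head, middle and tail, at 0.48 ± 0.094 (log2 ratio, SD, n = 4). NUT2 was at -0.98 ± 0.15 and MED4 at -0.67 ± 0.21 (log2 ratio, SD, n = 4), with limma adjusted p of 0.00190 and 0.00923. NUT2 and MED4 were called whichever array was left out, whereas SOH1 lost its call without array 1 or 3 and RGR1 without array 1, 3 or 4.

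The tail, through which activators recruit Mediator, had 2 of 5 called, both higher. These were SIN4 at 0.68 ± 0.14 and NUT1 at 0.50 ± 0.20, while GAL11 was at 0.29 ± 0.097 and MED2 at 0.090 ± 0.39 (log2 ratio, SD, n = 4). SIN4 was called whichever array was left out, whereas NUT1 lost its call without array 1 or 4. The kinase module had 2 of 4 called, both lower. They were SSN3, the kinase, at -0.78 ± 0.49 and SSN2 at -0.62 ± 0.23, whereas SRB8 was at 0.42 ± 0.25 and SSN8, the cyclin, at 0.081 ± 0.25 (log2 ratio, SD, n = 4). Neither SSN3 nor SSN2 was called without array 3 or without array 4, and SSN2 was also not called without array 1. Without array 2 SRB8 was called higher at 0.47 (limma adjusted p = 0.0377). The median of the means was 0.024 in the head, -0.0075 in the middle, 0.32 in the tail and -0.27 in the kinase module. No test between modules was made, and over all probes the fit called 40.5%. None of the 25 Mediator genes reached 2-fold on average, beside 14.4% of all probes. Of the 17 genes outside the head, 4 were called without array 1, 3 or 4 and 9 without array 2.

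**Figure D3:**
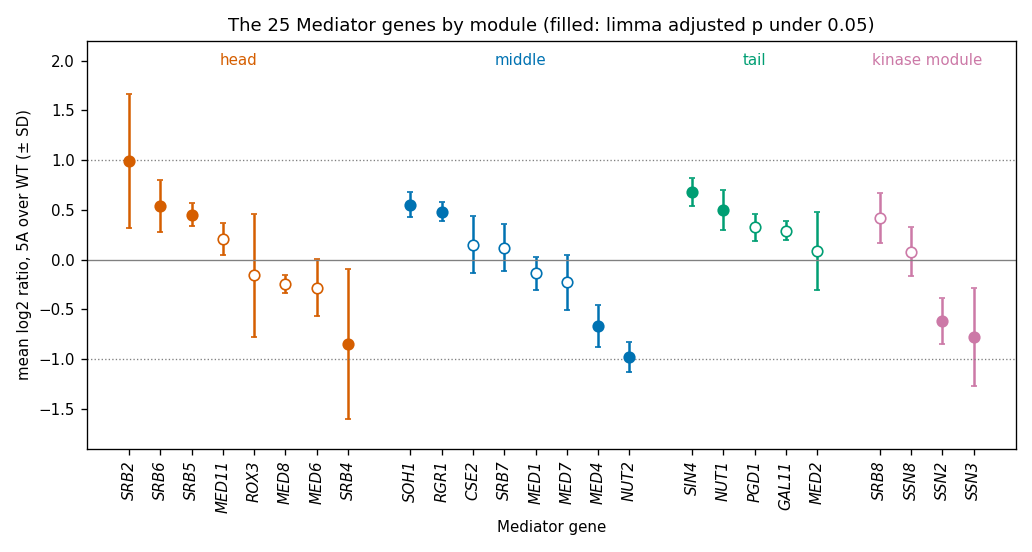
Mean log2 ratio of 5A over WT with SD over 4 arrays (vertical axis) for the 25 Mediator genes, grouped by module. Filled circles passed the limma test, and dotted lines mark 2-fold. Head and middle hold filled circles on both sides of 0, the tail only above it and the kinase module only below it.

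Among the factors that the head meets at a promoter, RPO21, which carries the CTD, came first as the gene altered in the mutant. Its log2 ratios were -5.97, -4.64, -5.67 and -6.40. Where its probe lies in the gene is not given in the sources used here, so this value does not check the labels. Of the other 11 polymerase II subunit genes, 3 were called higher and 1 lower, where the fit called 40.5% of all probes. RPC10 was at 1.18 ± 0.30 and RPB11 at 1.16 ± 0.41, and RPB3 was at -1.34 ± 0.43 (log2 ratio, SD, n = 4). Of 19 genes of the general transcription factors, 18 were measured, with 3 called higher and 3 lower. Among the calls, TFG1, lower, was lost whichever array was left out. CCL1, higher, was called only without array 2 when 1 array was left out.

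The highest of the general transcription factor genes, TFA2 at 1.11 ± 0.060 and TFA1 at 0.63 ± 0.15 (log2 ratio, SD, n = 4), encode TFIIE. Both are chromosome XI genes, and the median log2 ratio of that chromosome was 0.89. Relative to that median they were at 0.22 and -0.25. The lowest were the TFIIH genes TFB3 at -1.51 ± 0.50 and TFB1 at -0.57 ± 0.27 (log2 ratio, SD, n = 4), and TFB1 was called only without array 2 when 1 array was left out. No head gene lies on chromosome XI. The medians of the chromosomes that hold head genes (II, V, VII, VIII and XIII) were between -0.096 and 0.040.

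The genes on either side of each head gene were examined, since neighbors can share a change in copy number or a regulatory region. All 16 were measured, and 7 had a mean of the same sign as the head gene beside them. Over all 6157 probes fitted, 3055 had a mean above 0. Of the 16 neighbors 8 were called, beside 40.5% of all probes. SRB6 was the only head gene with both neighbors on its side and called, DUT1 at 0.65 ± 0.52 and TRS20 at 0.73 ± 0.49 (log2 ratio, SD, n = 4), but without array 1, 3 or 4 neither was called. The genes beside SRB2 and SRB4, the extremes of the head, were not called. BCD1 was at 0.13 ± 0.17 and NCP1 at -0.34 ± 0.21 beside SRB2, and RPN3 at 0.097 ± 0.41 and PRO3 at -0.086 ± 0.30 beside SRB4 (log2 ratio, SD, n = 4). NCP1 was below 0 on every array.

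SRB5 lay between NOP7, a ribosome assembly gene called lower at -0.74 ± 0.19, and VMA21, a gene for assembly of the vacuolar proton pump called higher at 0.71 ± 0.23 (log2 ratio, SD, n = 4). MED8 and MED6, both below 0, had both neighbors above it. RIM2 was at 0.31 ± 0.39 and AIM4 at 0.65 ± 0.12 beside MED8, and CPR2 at 0.43 ± 0.14 and FYV4 at 0.33 ± 0.29 beside MED6 (log2 ratio, SD, n = 4). AIM4 and CPR2 were called. MED11 had EUC1 at 0.42 ± 0.35 and FOL3 at -0.30 ± 0.16, neither called, and ROX3 had MRX3 at -1.63 ± 1.12 and the ribosomal protein gene RPL32 at 0.68 ± 0.37, both called (log2 ratio, SD, n = 4). By ORF name YBL094C lies between MRX3 and ROX3, but gene order was taken over protein-coding RefSeq entries, which passed it over. YBL094C was called higher at 0.79 ± 0.59 (log2 ratio, SD, n = 3, limma adjusted p = 0.0459). CPR2 and RPL32 lost their calls without array 1, 3 or 4, and MRX3 without array 4 (limma adjusted p = 0.0561).

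**Figure D4:**
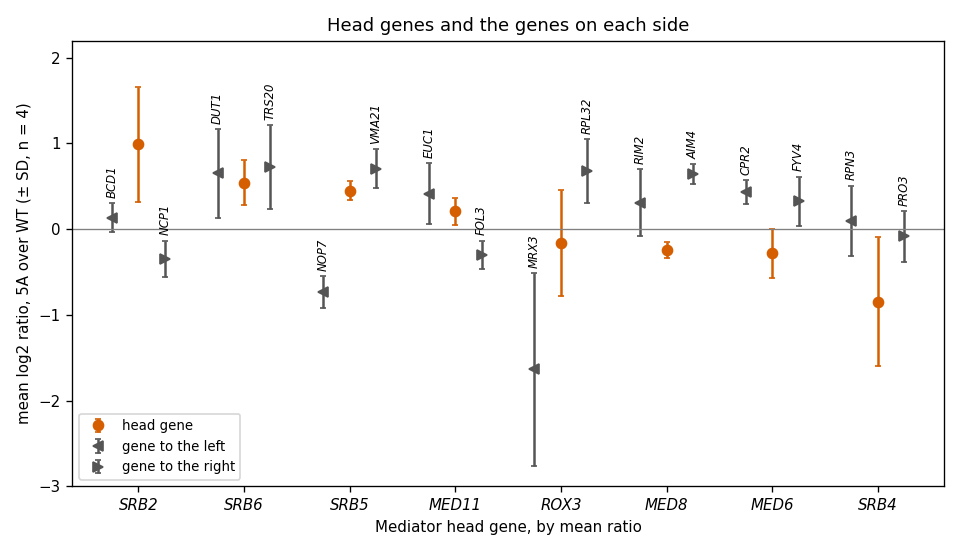
Mean log2 ratio of 5A over WT with SD over 4 arrays (vertical axis) for each head gene (orange circles) and for the genes to its left and right on the chromosome (grey triangles). The genes beside SRB2 and SRB4 stay within 0.34 of 0 in their means, and both genes beside SRB6 are higher in the mutant.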

How the data were processed

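The authors scanned the arrays with a GenePix 4000B instrument, normalized the signals on the BASE server of Duke University and deposited 1 log2 ratio per probe and array. The normalization method and background correction are not given in the sources used here, and spot intensities were not analysed. No source states the base or direction of the ratio. Reading it as log2 of 5A over WT puts 325 probes at a mean of at least 1 and 493 at -1 or less among the 5955 with 4 values, and this reading was taken because the study's own counts of genes up and down at its cut-offs are met by it. Between 6022 and 6177 probes had a value on an array. Symbols and gene order came from the RefSeq table of assembly R64, in which 5724 probes had a match.

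An intercept-only model was fitted in limma 3.58.1 (R 4.3.3) to the 6157 probes measured on 2 arrays or more. Variances were moderated with eBayes, and p-values were adjusted by the method of Benjamini and Hochberg, with calls at 0.05. The fit was tested on simulated data. Differences between genes were tested by exact sign flips over arrays. The number of arrays limits the precision. The rule for the members uses no value, but members, lists and alternatives were chosen with earlier results of these data known. Reported are all head genes, the genes beside them, RPO21, and the 2 highest and 2 lowest of each other list. TFG1 and CCL1 are named in addition for how their calls depended on single arrays. Figures were drawn with matplotlib 3.10.9 under Python 3.11.15. Promoter sequences were not used here.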

Additional observations from a re-analysis of the deposited data

Results flagged for a closer look

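Among 71 sets of 4 array values (the head genes, the other listed genes and the genes beside the head), 2 had 1 array far from the other 3 by Dixon's test at the 95% level, and chance flags about 1 in 20 such sets. Neither was a head gene. SRB8, of the kinase module, had a log2 ratio of 0.79 on array 4 against 0.25 to 0.31 on the others. SUA7, the gene of TFIIB, had a log2 ratio of 0.85 on array 2 against 0.20 to 0.30.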

How the results depend on the processing

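The 4 calls in the head were made again when arrays were centered or weighted, when they were given a common spread, with robust eBayes, and with values required on all 4 arrays or on 1. With each chromosome centered on its median, SRB4 was at -0.79 and no longer called (limma adjusted p = 0.0564), and 1 head gene, SRB2 at 1.03, passed 2-fold. Of the polymerase and general factor genes, 9 were called with chromosomes centered, in place of 11. With medians over arrays 1 head gene passed 2-fold too. Against a minimum of 2-fold, limma treat called 0 head genes and 0 other Mediator genes (also 0 at an unadjusted p under 0.05 in both), 1 polymerase or general factor gene in place of 11, and 149 in place of 2495 probes. The values of SRB2, SRB4, SRB5 and SRB6 stayed at 0.99, -0.85, 0.45 and 0.54 by construction, with adjusted p of 1.

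With 1 array left out, limma called 0 to 5 head genes, 4 to 9 other Mediator genes, 7 to 13 polymerase and general factor genes and 1438 to 3120 probes, and 0 to 2 head genes passed 2-fold. Mean log2 ratios then lay between 0.76 and 1.26 for SRB2, -1.14 and -0.58 for SRB4, 0.41 and 0.50 for SRB5, 0.41 and 0.60 for SRB6, -0.45 and 0.030 for ROX3, -0.37 and -0.15 for MED6, -0.28 and -0.21 for MED8, and 0.15 and 0.28 for MED11. Without array 2 they were 0.86 for SRB2, -0.97 for SRB4, 0.45 for SRB5, 0.57 for SRB6 and -0.45 for ROX3, all called. MED6 at -0.30, MED8 at -0.26 and MED11 at 0.20 were not called without it. Over all probes, 1438, 1501 and 1492 were called without array 1, 3 or 4 and 3120 without array 2, whose limma weight was 0.36 against 0.983 to 2.07. The cause was not tested.

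Small differences between neighbors in the order turned sign. SRB6 minus SRB5 was -0.011 and MED8 minus MED6 -0.046 with chromosomes centered. With 1 array left out they lay between -0.026 and 0.17 and between -0.060 and 0.098, and ROX3 minus MED8 between -0.20 and 0.24. These repeats of the differences were chosen after seeing the data. The fit of ratios and the sign flips already compare RNAs within an array. Beyond this, no paired analysis was possible because the 4 arrays form 1 group, which leaves no second group for a replicate block.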
